A study of Mus musculus with 4 samples.

Results

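Chil1, Chil3, Chil4, Retnla, Retnlg, Ear2 and Rnase2a encode secreted chitinase-like, resistin-like and eosinophil-type ribonuclease proteins. They were followed in primary mouse Kupffer cells, which are macrophages resident in liver, given maresin 1 or its vehicle. The members were found by matching the RefSeq accession of each non-control probe to a gene symbol, under current or older names. All 7 members were on the array with 1 probe each, and 5 of them were among the 24067 genes bright enough to be tested. The MaR1 group (2 arrays) had 200 nM Maresin 1 for 24 h, and the Veh group (2 arrays) had EtOH. In both groups the cells were Kupffer cells of male C57BL/6 mice aged 8 weeks, freed with collagenase type IV, enriched on Percoll, plated in RPMI medium with 10% FBS and treated in RPMI with 0.1% FBS. No allele or further agent distinguished the groups. A Percoll layer is an enriched population rather than a pure one, and the labels do not say how many mice or cultures stood behind an array. Maresin 1 is a docosahexaenoic acid derivative, made by macrophages, that promotes the ending of inflammation.

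Macrophages exposed to interleukin 4 or interleukin 13 enter a state called alternative activation, in which the transcription factor STAT6 switches on a set of secreted proteins. In mice, the chitinase-like lectin Ym1 (the product of Chil3) and the resistin-like molecule RELM alpha (the product of Retnla) are classical readouts of that state. Chitinase-like proteins are related to chitinases but do not cleave chitin. The eosinophil-associated ribonucleases are a mouse gene family expanded from the ribonuclease A fold. They are stored in eosinophil granules and are also made by macrophages.

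Several of the members lie beside close relatives in the genome, and the sequence before their start sites shows how alike those windows are. In the order of RefSeq genes on assembly GRCm38.p6, Chil3 and Chil4 are adjacent on chromosome 3, with 0 annotated genes between them. Retnlb, Retnla and Retnlg are adjacent on chromosome 16. Chil1 lies apart from both, on chromosome 1. Ear1, Ear10 and Ear2 lie in one stretch of chromosome 14 and Rnase2b, Rnase2a and Ear6 in another, with 97 protein-coding genes between Ear2 and Rnase2a. All 7 members had an entry in the RefSeq promoter table, and the 250 bases before each annotated start were searched.

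The first pair shown is Chil3 (chr3:106167565-106167814, minus strand) and Chil4 (chr3:106219480-106219729, minus strand), close copies of which Chil3 was well above background on these arrays and Chil4 was not. The second pair is Retnla (chr16:48842359-48842608, plus strand) and Retnlg (chr16:48872358-48872607, plus strand), neighbours of which Retnla passed the test and Retnlg did not. All are RefSeq sequences of GRCm38.p6, written 5′ to 3′ along the gene's strand. Capitals mark each match, on either strand, to a STAT6-type motif (TTC and GAA with 4 bases between them), a STAT-type motif (TTCNNNGAA) or a C/EBP-type motif (TTGCNNAA), the last named after a family of myeloid transcription factors.
Chil3: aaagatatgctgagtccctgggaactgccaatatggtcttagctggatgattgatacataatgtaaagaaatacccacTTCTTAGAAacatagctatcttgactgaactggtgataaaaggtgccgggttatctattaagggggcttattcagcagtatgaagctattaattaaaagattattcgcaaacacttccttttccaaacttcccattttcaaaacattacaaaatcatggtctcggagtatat
Chil4: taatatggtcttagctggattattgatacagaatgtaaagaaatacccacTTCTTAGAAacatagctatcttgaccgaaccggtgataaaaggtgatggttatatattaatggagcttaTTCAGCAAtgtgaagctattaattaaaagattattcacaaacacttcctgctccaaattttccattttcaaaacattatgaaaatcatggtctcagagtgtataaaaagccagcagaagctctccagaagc
Retnla: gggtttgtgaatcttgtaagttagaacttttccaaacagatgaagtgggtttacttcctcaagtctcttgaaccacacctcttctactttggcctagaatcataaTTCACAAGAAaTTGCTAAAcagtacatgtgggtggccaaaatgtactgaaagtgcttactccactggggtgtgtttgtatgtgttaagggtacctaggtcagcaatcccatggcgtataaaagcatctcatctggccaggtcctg
Retnlg: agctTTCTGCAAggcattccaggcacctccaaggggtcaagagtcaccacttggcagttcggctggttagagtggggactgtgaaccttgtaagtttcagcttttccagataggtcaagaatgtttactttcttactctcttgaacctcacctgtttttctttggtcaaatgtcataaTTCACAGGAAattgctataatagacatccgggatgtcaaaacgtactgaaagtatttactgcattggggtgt

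Chil3 and Chil4 shared a stretch of 222 aligned bases that were 90.5% identical. In Chil4 that stretch ended 29 bases before the annotated start, and in Chil3 at the start itself. Both held the same STAT-type match, TTCTTAGAA, whose first base was 172 bases before the Chil3 start and 200 bases before the Chil4 start. The C/EBP-type match of Chil4 was in the shared stretch, and the Chil3 letters at that place were not a match. Retnla and Retnlg shared 177 aligned bases at 76.3% identity. Each held a STAT6-type match in that stretch, TTCACAAGAA in Retnla (first base 145 bases before the start) and TTCACAGGAA in Retnlg (72 bases before). Retnla also held a C/EBP-type match, TTGCTAAA, with 1 base between it and the STAT6-type match. The Chil1 window held none of the motifs searched. Across the 16 pairs of members from different families, the longest aligned stretch was 38 bases.

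The third set is from the ribonucleases, shown because the windows of several of these genes are near copies of one another. Ear2 (chr14:44102404-44102653, plus strand) and Rnase2a (chr14:51256113-51256362, minus strand) are members, Ear1 (chr14:43819640-43819889, minus strand) is the closest relative of Ear2 by this window, and Rnase2b (chr14:51162010-51162259, plus strand) is a close relative that stayed at background on these arrays. Capitals mark the same motifs as above.
Ear2: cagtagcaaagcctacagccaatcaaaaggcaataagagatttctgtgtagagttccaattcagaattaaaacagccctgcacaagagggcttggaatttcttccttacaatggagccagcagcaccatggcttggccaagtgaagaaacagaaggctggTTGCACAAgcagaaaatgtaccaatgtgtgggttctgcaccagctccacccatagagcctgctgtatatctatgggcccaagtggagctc
Ear1: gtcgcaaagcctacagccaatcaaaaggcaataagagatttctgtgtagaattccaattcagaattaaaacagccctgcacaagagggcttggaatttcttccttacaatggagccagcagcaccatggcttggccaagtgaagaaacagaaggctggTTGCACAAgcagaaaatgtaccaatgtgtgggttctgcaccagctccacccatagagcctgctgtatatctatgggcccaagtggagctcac
Rnase2a: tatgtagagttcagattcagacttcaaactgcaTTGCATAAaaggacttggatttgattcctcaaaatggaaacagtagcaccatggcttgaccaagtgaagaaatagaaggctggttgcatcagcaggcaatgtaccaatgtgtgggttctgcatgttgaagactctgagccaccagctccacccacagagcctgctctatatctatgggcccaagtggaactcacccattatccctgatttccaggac
Rnase2b: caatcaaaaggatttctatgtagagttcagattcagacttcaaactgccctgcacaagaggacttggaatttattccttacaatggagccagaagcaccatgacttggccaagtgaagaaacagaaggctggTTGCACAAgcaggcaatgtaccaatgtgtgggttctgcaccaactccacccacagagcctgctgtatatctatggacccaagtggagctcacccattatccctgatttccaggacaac

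Ear2 and Ear1 were 99.2% identical over 248 aligned bases, and Ear2 and Ear10 94.6% over 242. Ear2 and Rnase2b shared 212 bases at 92.9%, and Ear2 and Rnase2a 223 bases at 79.4%. The C/EBP-type letters TTGCACAA stood in Ear2, Ear1, Ear10 and Rnase2b, at places that correspond in the alignment. Rnase2a carried a C/EBP-type match (TTGCATAA) elsewhere, 217 bases before its start, and Ear6 carried none. No STAT6-type or STAT-type match was in the window of Ear2, Ear1, Ear10, Ear6, Rnase2a or Rnase2b. A PU.1-type motif (GAGGAAG) and a nuclear receptor core site (AGGTCA) were also searched on both strands. A PU.1-type match was in 1 member, Retnla, and a core site in 2, Retnla and Retnlg. Of all 32851 promoters in the table, 5.85% held the STAT6-type motif, 7.02% the STAT-type, 9.56% the C/EBP-type, 10.6% the PU.1-type and 14% the core site within the same length. Of the 7 members, 2 held the STAT6-type motif, 2 the STAT-type and 5 the C/EBP-type. These matches describe letters and do not show binding.

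**Figure D1:**
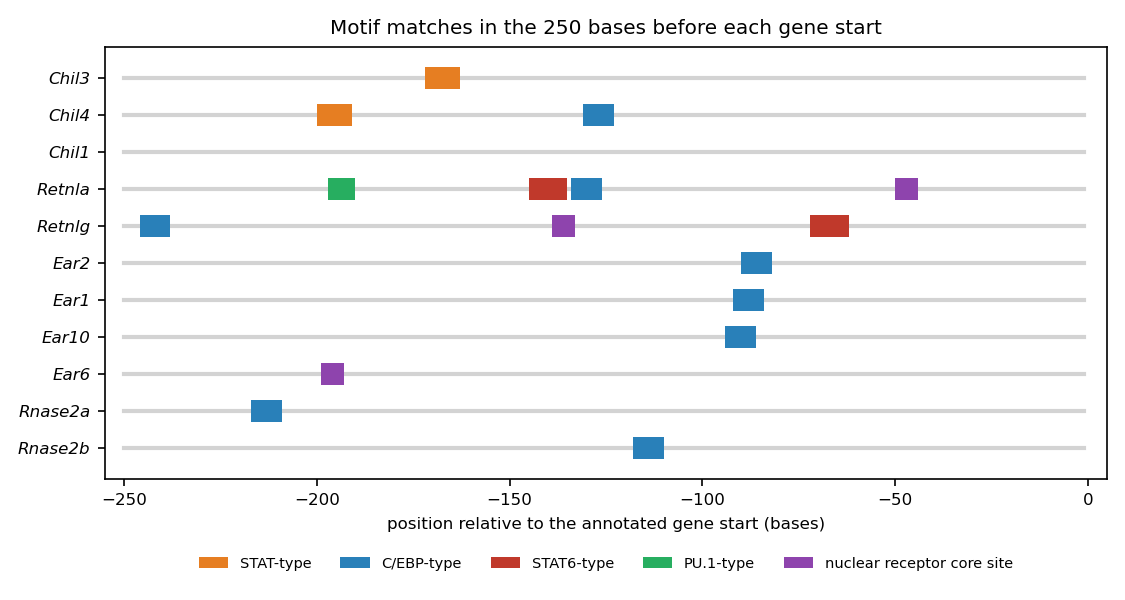
Motif matches (coloured blocks, on either strand) in the 250 bases before the annotated start of 11 genes of the 3 families, with position in bases on the horizontal axis. Chil3 and Chil4 share a STAT-type match, Retnla and Retnlg each hold a STAT6-type match, and Chil1 has no match.

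Each gene was measured on 4 one-colour arrays of 1 slide, each labelled with Cy3. The level used is log2 of the processed signal (background-subtracted spot intensity) minus log2 of the array's 75th percentile, and the number of arrays limits its precision. On each array, 54.4% to 55.6% of its 56605 probes passed the scanner's test of being well above background. Across genes, which are not independent replicates, arrays correlated with r = 0.998 within each group and between 0.990 and 0.991 across groups. The Veh arrays stood at the first pair of slide positions and the MaR1 arrays at the next, so position and treatment cannot be told apart. Clec4f, a lectin gene that marks Kupffer cells, had levels of 6.46 and 6.39 on the MaR1 arrays and 6.43 and 6.34 on the Veh arrays. All 13 listed Kupffer cell markers were measured, and the brightest of their probes was that of Marco.

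The comparison asks whether these genes differ between Kupffer cells given maresin 1 and cells given vehicle. Chil3, Retnla, Ear2 and Rnase2a rose with maresin 1, and their 2 MaR1 arrays lay above both Veh arrays in each case. Each array measured RNA of a bulk culture, in which a change in how many cells of a type were present and a change in RNA per cell cannot be told apart. By limma's moderated test with Benjamini-Hochberg adjustment over all genes (threshold 0.05), 4 of the 5 tested members were higher and 0 were lower, against 11.2% of all genes tested that were higher and 12.7% that were lower. With no adjustment for multiple tests, limma likewise called 4 members higher and 0 lower at the same threshold, against 18.6% of all genes higher and 22.1% lower. All 5 tested members were well above background on all 4 arrays, so none entered through 1 group. The 2 members not tested, Chil1 and Chil4, were not well above background on any array. No label ties an array to a culture or an animal of its own, so the p-values reflect the spread among these 4 arrays alone, and that spread may be technical. Full separation of the groups is the most extreme outcome of an exact permutation test of 2 arrays against 2. The two-sided p of that test cannot go below 0.333, so separation alone says little and the test across all genes was used.

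**Figure D2:**
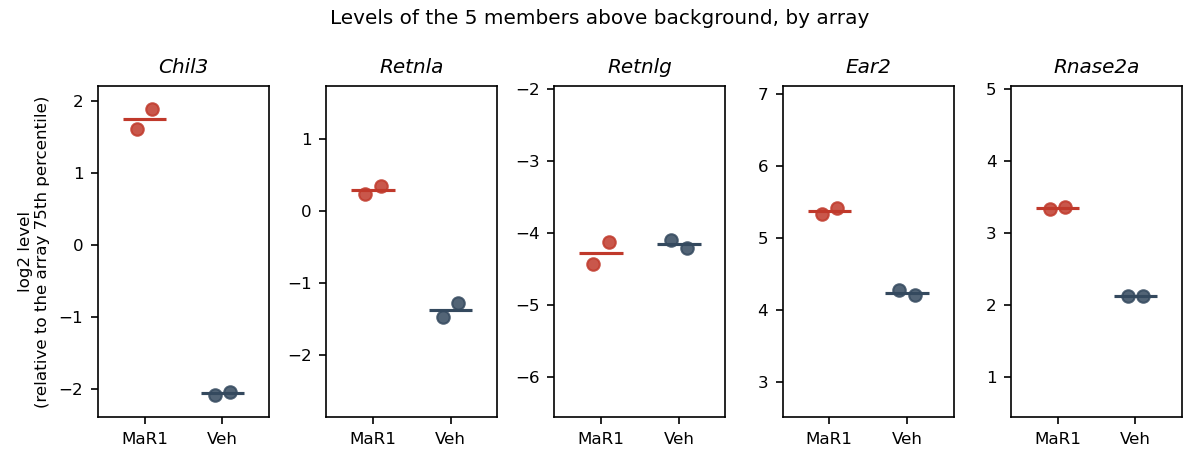
Log2 level of the 5 tested members on each array (points) with the group mean (line), MaR1 left of Veh, on axes of equal length but different position. Chil3, Retnla, Ear2 and Rnase2a are higher on both MaR1 arrays than on either Veh array, and the Retnlg points of the groups overlap.

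Chil3 encodes Ym1, a chitinase-like lectin that macrophages secrete and that can form crystals in mouse airways. Its processed signal was 2869 and 3125 on the MaR1 arrays and 227 and 240 on the Veh arrays. The groups were far apart, and the MaR1 arrays differed more from each other than the Veh arrays did on the log2 scale. The log2 level of Chil3 averaged 1.74 ± 0.20 in MaR1 and -2.06 ± 0.03 in Veh (SD, n = 2 each). Chil3 rose 14.0-fold, with a log2 difference of 3.80 ± 0.11 (± gives the standard error from limma, n = 2 in each group, here and for later differences), a 95% interval of 3.50 to 4.11 and adjusted p = 0.0015. Ranked by difference among the 22889 genes well above background on all 4 arrays, Chil3 came at position 2.

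Chil4 encodes Ym2, a close copy of Ym1, and its signal stayed at background. The processed signal of Chil4 was 9.65 and 9.26 on the MaR1 arrays and 4.56 and 4.55 on the Veh arrays. The lowest signal of any probe well above background was 17.6 and 16.0 on the MaR1 arrays and 20.6 and 20.5 on the Veh arrays, so all 4 Chil4 values are below what the arrays measured well and no fold is given. The scanner's weaker criterion, a signal positive and significant against background, was met for Chil4 on both MaR1 arrays and on neither Veh array. As raw brightness, the median pixel of the Chil4 spot was 64 and 62 on the MaR1 arrays over a local background of 48 and 50. On the Veh arrays it was 58 and 53 over 41 and 48. Probe sequences were not used here, so how much Chil3 transcript binds the Chil4 probe, or the reverse, was not tested.

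Chil1 encodes BRP-39, the mouse counterpart of the human protein YKL-40, a chitinase-like protein of inflamed and remodelling tissue. Its processed signal was 3.65 and 3.30 on the MaR1 arrays and 10.1 and 13.2 on the Veh arrays. Chil1 was thus not well above background on any array and has no fold, although it met the weaker criterion on both Veh arrays and on neither MaR1 array. With no filter on dim probes, limma called Chil4 higher (adjusted p = 0.0278) and Chil1 lower (adjusted p = 0.0433), calls that rest on differences between values at background.

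**Figure D3:**
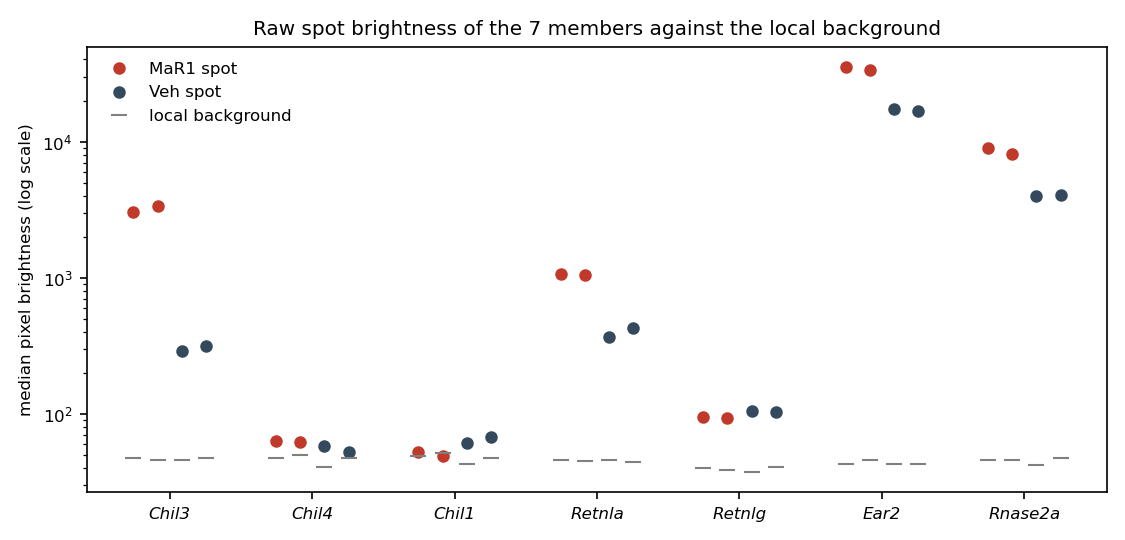
Median pixel brightness of the spot of each of the 7 members on each array (points, log axis), MaR1 left of Veh, with the local background of the same spot (grey dashes). Ear2, Rnase2a, Chil3 and Retnla lie far above the background, Retnlg lies above it by less, and Chil4 and Chil1 lie next to it.

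Retnla and Retnlg are neighbouring resistin-like genes. Retnla encodes RELM alpha (also called FIZZ1), a small secreted protein of alternatively activated macrophages and inflamed airway epithelium. The processed signal of Retnla was 1118 and 1073 on the MaR1 arrays and 347 and 408 on the Veh arrays. The groups did not overlap, and the Veh arrays differed more from each other than the MaR1 arrays did. The log2 level of Retnla averaged 0.29 ± 0.07 in MaR1 and -1.37 ± 0.14 in Veh (SD, n = 2 each). Retnla rose 3.17-fold, a log2 difference of 1.66 ± 0.09 with a 95% interval of 1.41 to 1.91 and adjusted p = 0.00301 by limma.

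Retnlg encodes RELM gamma, which is known from neutrophils and bone marrow. Its processed signal was 43.9 and 48.4 on the MaR1 arrays and 56.1 and 53.2 on the Veh arrays, dim but well above background on every array. Relative to the 75th percentile the groups overlapped, with log2 levels of -4.43 and -4.13 on the MaR1 arrays and -4.10 and -4.21 on the Veh arrays. Retnlg did not pass the test, with a log2 difference of -0.12 ± 0.12, a 95% interval of -0.46 to 0.21 and adjusted p = 0.498 by limma. The intervals of Retnla and Retnlg do not overlap. The other resistin genes stayed at or near background. Retnlb, whose product RELM beta is an intestinal goblet cell protein, stayed below the well-above-background mark on all 4 arrays. Retn, which encodes resistin, a hormone of mouse fat cells, was well above background on replicate 2 of each group only and was not tested. Its brightest probe had processed signals of 18.2 and 24.3 on the MaR1 arrays and 20.2 and 24.8 on the Veh arrays.

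Ear2 and Rnase2a encode eosinophil-associated ribonucleases. The processed signal of Ear2 was 37975 and 36001 on the MaR1 arrays and 18622 and 18271 on the Veh arrays. Both MaR1 arrays were far above both Veh arrays, and the replicates of a group were close. The log2 level of Ear2 averaged 5.37 ± 0.06 in MaR1 and 4.24 ± 0.05 in Veh (SD, n = 2 each), and Ear2 rose 2.18-fold, a log2 difference of 1.13 ± 0.06 (95% interval 0.95 to 1.30, limma adjusted p = 0.00312).

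The processed signal of Rnase2a was 9482 and 8680 on the MaR1 arrays and 4201 and 4281 on the Veh arrays. The log2 level of Rnase2a averaged 3.34 ± 0.02 in MaR1 and 2.12 ± 0.01 in Veh (SD, n = 2 each). Rnase2a rose 2.33-fold, a log2 difference of 1.22 ± 0.06 (95% interval 1.07 to 1.37, limma adjusted p = 0.00236). The intervals of Ear2 and Rnase2a overlap, whereas that of Chil3 lies above those of all other tested members and that of Retnla above those of Ear2 and Rnase2a.

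Other eosinophil-associated ribonuclease genes gave values of the same size. Ear1 had processed signals of 9295 and 7956 on the MaR1 arrays and 4410 and 4445 on the Veh arrays, and rose by a log2 difference of 1.08 ± 0.06 (limma adjusted p = 0.00298). Ear10 had 6806 and 6042 on the MaR1 arrays and 2979 and 2956 on the Veh arrays, and rose by 1.23 ± 0.06 on the log2 scale (adjusted p = 0.00238). Ear6 had 842 and 746 on the MaR1 arrays and 450 and 367 on the Veh arrays, and rose by 1.08 ± 0.13 on the log2 scale (adjusted p = 0.011). The call of Ear6 was lost without MaR1 replicate 1 or without MaR1 replicate 2 (adjusted p = 0.0534 and 0.0594), and the difference at its second, dim probe was 0.38 ± 0.27 on the log2 scale (adjusted p = 0.338 over all probes). In all, 5 of the 5 tested genes of this subfamily were higher, with a median log2 difference of 1.13, against 11.2% and a median of -0.02 over all genes tested. The subfamily was set apart after its values were seen. Rnase2b did not reach the well-above-background mark on an array, and Ear14 was not among the probes matched here. Because these genes are close copies and the probe sequences were not used here, the signals of Ear2, Ear1, Ear10, Ear6 and Rnase2a may come in part from the same transcripts.

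The rest of the ribonuclease A family showed smaller values. Of its 6 other tested genes, 0 passed by limma after adjustment, with a median log2 difference of 0.22. Without adjustment, 2 of the 6 (Ang and Rnase6) were past the same threshold, against 40.7% of all genes tested. Ang, which encodes angiogenin, had a log2 difference of 0.46 ± 0.14 (adjusted p = 0.080). Rnase6, which encodes an antimicrobial ribonuclease of monocytes and macrophages, had a log2 difference of 0.26 ± 0.07 (adjusted p = 0.064). Rnase4 (0.30 ± 0.13), Ang4 (0.18 ± 0.23), Ang6 (0.01 ± 0.13) and Rnase10 (-0.01 ± 0.32) did not pass with or without adjustment. Ang2, Rnase1, Rnase9, Rnase11, Rnase12 and Rnase13 were not well above background on any array. Rnh1 encodes the cytosolic ribonuclease inhibitor, which binds and blocks these enzymes. Rnh1 rose by a log2 difference of 0.31 ± 0.06 (limma adjusted p = 0.0362), a call lost in 9 of the 13 processing alternatives. It did not survive leaving out an array, whichever it was. With all arrays kept it was also lost with quantile normalization, normexp, no filter on dim probes and a replicate block. The same held for the authors' values (0.21 ± 0.06, limma adjusted p = 0.061).

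Among chitinase family genes Chil3 was the single gene to pass, of 5 tested and 10 listed, and the median log2 difference of the 5 was 0.23. That count rested on the processing: with all arrays kept it was 1 to 3 over the alternatives, since Ctbs passed in 6 of the 13 alternatives and Chid1 in 2, and with no filter on dim probes Chil4 was added. Chit1 encodes chitotriosidase, an active chitinase of macrophages. Its processed signal was 1908 and 1850 on the MaR1 arrays and 2204 and 1996 on the Veh arrays, with a log2 difference of -0.04 ± 0.09 (95% interval -0.28 to 0.21, limma adjusted p = 0.791). Ctbs, a lysosomal chitobiase gene, had a log2 difference of 0.25 ± 0.06 (adjusted p = 0.0504) at its brightest probe and -0.05 ± 0.07 at its other probe. Chid1, which encodes a chitinase-domain protein of the secretory pathway and lysosome, had a log2 difference of 0.23 ± 0.06 (adjusted p = 0.0656) at its brightest probe and 0.34 ± 0.06 (adjusted p = 0.0296 over all probes) at its other probe. Ovgp1, the oviduct glycoprotein gene of the family, had a log2 difference of -0.39 ± 0.14 (adjusted p = 0.121). Chia1, the acidic mammalian chitinase gene, and Chil6 were not well above background on any array, and Chil5 was not among the probes matched here.

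**Figure D4:**
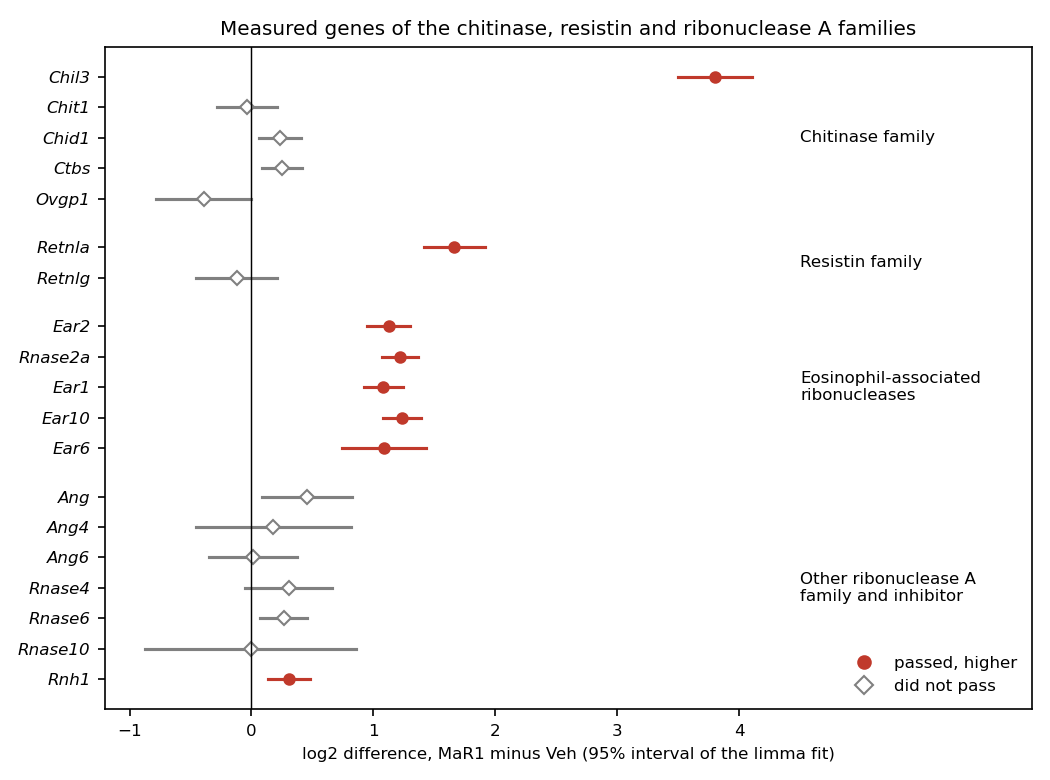
Log2 difference (MaR1 minus Veh, point) with the 95% interval of the limma fit (line) for every tested gene of the chitinase, resistin and ribonuclease A families, each at its brightest probe. Filled red points passed the adjusted threshold. Chil3 stands at 3.80, Retnla at 1.66 and the 5 eosinophil-associated ribonucleases between 1.08 and 1.23, while the others lie between -0.39 and 0.46.

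Other genes of alternative activation rose in the same arrays. Of 25 tested genes on a list that leaves the members out, 21 were higher and 0 lower, with a median log2 difference of 1.25. Over all genes tested, 11.2% were higher and 12.7% lower, with a median of -0.02. The list was chosen with earlier results of these data known, so its count is not separate support for the members. Not every call held whichever array was left out. The smallest p-values were those of Arg1 (arginase 1, 3.07 ± 0.05), Pdcd1lg2 (the checkpoint ligand PD-L2, 3.22 ± 0.06) and the chemokine genes Ccl17 (3.79 ± 0.08) and Ccl24 (2.87 ± 0.07), all as log2 differences by limma. The genes that did not pass were Cdh1 (0.60 ± 0.14), Alox15 (-0.23 ± 0.08), Pparg (-0.17 ± 0.06) and Il4ra (-0.01 ± 0.07), of which all but Il4ra passed without adjustment. Il4ra, which encodes the receptor chain for interleukins 4 and 13, had a value of 0.76 ± 0.10 (adjusted p = 0.0148 over all probes) at its other probe.

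The genes whose 4 levels, centred on their mean, lay nearest to those of a member were found by Euclidean distance in log2 units over the 4 arrays. Nearest to Chil3 were Ccl17 (0.083), Ccl8 (0.133) and Tafa3 (0.269). Nearest to Retnla were Ddah1 (0.070), P2ry1 (0.072) and Matk (0.096). Nearest to Ear2 were Hibadh (0.017), Glra1 (0.039) and Cd300lb (0.049), and nearest to Rnase2a were Slc2a4 (0.017), Adam8 (0.023) and Klb (0.033). Erbin (0.0049), Eif3j2 (0.025) and Npvf (0.029) were nearest to Retnlg. Among the ribonucleases themselves, Ear10 and Rnase2a were 0.044 apart and Ear2 and Rnase2a 0.108. With 4 arrays in 2 groups, the distance mainly ranks genes by the size of their difference.

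Several of the members are also known from other leukocytes, so markers of those cells were examined. Of the 9 eosinophil markers, Epx, Prg3, Il5ra and Gata1 were not well above background on any array. Epx and Prg3 encode eosinophil granule proteins. Prg2, the major basic protein gene, had a log2 difference of 0.04 ± 0.36 (adjusted p = 0.936). Besides Ear6, 2 of the 4 tested eosinophil markers rose, Cebpe (1.52 ± 0.06) and Siglecf (0.70 ± 0.07). The Siglecf call was lost without MaR1 replicate 2 (adjusted p = 0.0513). Ccr3, the eotaxin receptor gene, had a log2 difference of -0.20 ± 0.06 (adjusted p = 0.0760). Summed levels, here and for later lists, are the log2 of the tested genes' levels added on the linear scale. Without Ear6, the summed level of the list ran from -0.33 to -0.28 in MaR1 and from -1.27 to -1.15 in Veh. The largest part of that sum was Cebpe, a transcription factor gene of granulocytes, with a mean log2 level of -0.90 in MaR1 and -2.42 in Veh. The part of eosinophils in the differences of Ear2 and Rnase2a was not tested beyond these values.

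Neutrophils express Retnlg, and Chil3 is known from neutrophils and monocytes too. Of 11 tested neutrophil markers 0 rose and 2 fell, Mmp8 (-1.53 ± 0.08) and Mcemp1 (-0.86 ± 0.06), while without adjustment Mmp9 (-0.48 ± 0.13), named after its value was seen, was lower as well and again 0 were higher. These counts became 1 higher and 6 lower with normexp, and 1 higher and 4 lower with a variance trend. The summed log2 level of the neutrophil list was 5.38 to 5.51 in MaR1 and 5.56 to 5.61 in Veh, with Cxcr2 not well above background on any array and the brightest probe that of Csf3r. Of 8 tested monocyte markers 4 fell, and the summed level of the list was 7.95 to 8.02 in MaR1 and 7.86 to 7.91 in Veh. The markers that fell were Treml4 (-1.50 ± 0.05), Cx3cr1 (-1.13 ± 0.11), Ccr2 (-0.70 ± 0.06) and F13a1 (-1.37 ± 0.21), and the F13a1 call was lost without either Veh array (adjusted p up to 0.0790). The part of neutrophils and monocytes in the Chil3 difference was not tested beyond these values.

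Macrophages of the lung and peritoneum are known for some of the same genes. Of 7 tested alveolar and peritoneal macrophage markers 4 rose, Gata6 (1.56 ± 0.09), Fabp4 (1.29 ± 0.07), Ear1 and Siglecf, and the lung marker Car4 stayed at background throughout. Ear1 is itself one of the ribonucleases compared above, so its call is not separate from theirs. The summed level of the 7 markers was 8.48 on both MaR1 arrays and 8.50 to 8.56 on the Veh arrays. The brightest probe in that sum was again that of Marco, a gene Kupffer cells share. Of 8 tested dendritic cell markers 6 rose, among them Itgax (2.39 ± 0.08), Batf3 (1.89 ± 0.06), Clec9a (0.99 ± 0.06) and Cd209a (0.73 ± 0.10, lost without either MaR1 array, adjusted p up to 0.0746), and 3 of the 6 calls survived the omission of any array. The 2 that did not pass had negative differences, Flt3 (-0.28 ± 0.07, limma adjusted p = 0.0571) and Itgae (-0.14 ± 0.16). The summed dendritic level was 5.65 to 5.69 in MaR1 and 4.35 to 4.38 in Veh. Among the B cell markers Ms4a1 (1.21 ± 0.09) and Cd79b (0.74 ± 0.08) rose, and the summed level of the list was 1.78 to 1.86 in MaR1 and 0.95 to 1.12 in Veh. Of 6 tested hepatocyte markers 1 fell, Ttr (-0.41 ± 0.06, a call that no omission of an array left standing, adjusted p up to 0.0940), and the summed level was 4.07 to 4.16 in MaR1 and 4.29 to 4.40 in Veh. Of 13 tested Kupffer cell markers 2 rose, Cd163 (1.38 ± 0.15) and Csf1r (0.29 ± 0.07). The 3 that fell were Spic (-1.71 ± 0.05), Adgre1 (-0.67 ± 0.06) and Id3 (-0.59 ± 0.07). The calls of Spic and Adgre1 held whichever array was left out, and those of Cd163, Csf1r and Id3 did not. At its other probe Cd163 had a difference of 0.12 ± 0.17. The summed level of the list was 9.82 to 9.84 in MaR1 and 9.97 to 10.03 in Veh. The part of these cell types in the members' differences was not tested.

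For the genes tested, over the 13 alternatives the log2 difference of Chil3 ran from 3.46 to 3.94, that of Retnla from 1.51 to 1.76, that of Rnase2a from 1.15 to 1.24 and that of Ear2 from 1.00 to 1.17, each passing in every alternative (adjusted p at most 0.0296). Retnlg ran from -0.27 to 0.03 and passed in 0 of the 13 (limma, smallest adjusted p 0.154).

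**Figure D5:**
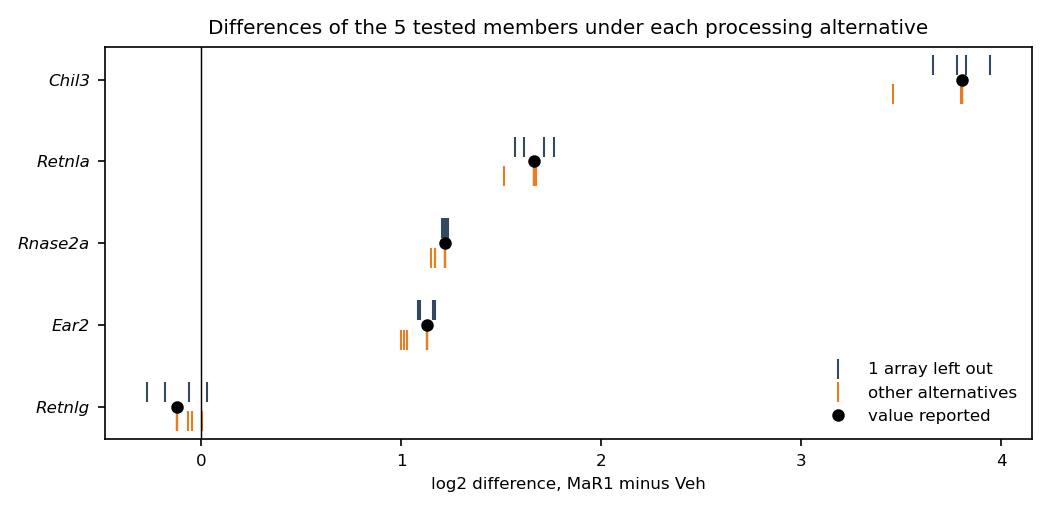
Log2 difference (MaR1 minus Veh) of the 5 tested members as reported (black point), with 1 array left out (dark ticks) and under the other alternatives (orange ticks). Chil3, Retnla, Rnase2a and Ear2 stay at 1.00 or above throughout, and Retnlg lies around 0.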

How the data were processed

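RNA was measured on 1-colour Agilent arrays. The deposited intensity values came from Agilent Feature Extraction 11.0.1.1, per the file headers, with the background subtracted within each array and no normalization between arrays. The authors also deposited log2 values per probe, whose scale and centring are not given in the sources used here. Each of their columns had a median of 9.07 and followed that array's processed signals on the log2 scale (r = 1.00), and they served as an alternative. No spot was saturated (0 per array).

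Each array's 75th percentile of processed signal was taken across the 59305 spots that are not controls. Its log2 was subtracted from the array's log2 processed signals. Control spots and 94 to 123 outlier spots per array were dropped and replicate spots averaged. The 31128 probes measured well above background throughout at least 1 group were tested. They were named through RefSeq accessions of assembly GRCm38.p6 (32994 of 56605 probes had 1 symbol), and each gene was taken at its brightest kept probe. The headers name another build, so no gene coordinates are given besides those of the RefSeq promoter windows. The test was limma's lmFit with eBayes (version 3.58.1 under R 4.3.3), with Benjamini-Hochberg adjustment over 24067 genes, and it was also tested on simulated data. Promoter windows were aligned with Biopython 1.88 (match 1, mismatch -1, gap -4 to open and -1 to extend), and figures drawn with matplotlib 3.10.9.

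The members and gene lists were chosen with earlier results of these data known. Named genes were the members, every tested gene of their families, up to 4 called genes per list by smallest p, the marker with the brightest probe in each list and the 3 nearest genes per member. Some further markers were named after their values were seen, to show both directions of a list. Alternatives were quantile normalization, normexp with offset 50 on the median spot signal, the authors' deposited values, an absent or a strict filter on dim probes, probes averaged per gene or kept apart, a variance trend, a replicate block and each array left out. Values of some marker genes are not reported here.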

Additional observations from a re-analysis of the deposited data

How the results depend on the processing

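All 65 recomputed values of the 5 tested members kept their side of the threshold, and the direction changed for Retnlg alone, which did not pass in any case (0.00060 with normexp and quantile normalization, 0.029 without MaR1 replicate 1; -0.27 to 0.029 over the arrays left out in turn). The count of higher members was 4 throughout except for 5 with no filter on dim probes, where 1 member was lower; those 2 added calls, Chil4 and Chil1, lie at background. The count of all genes called was 5768, against 2059 with no filter, 9196 with a variance trend, 3692 with a replicate block and 1967 to 2825 with 1 array left out. Under the no-filter setting 45604 genes were tested and their median difference was -0.14, against -0.02; calls without Veh replicate 2 were 57.8% higher, against 46.8%.

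The replicate block kept the calls of Chil3, Retnla, Ear2 and Rnase2a (4 higher, 0 lower). The labels do not say what a replicate number marks, and deviations of replicate 1 in the groups correlated with r = -0.03 across genes, so the numbers were not taken as pairs. Of 247 recomputed differences over all tested family genes, 13 no longer passed, 13 newly passed and 13 changed sign. Besides Retnlg, the sign changed for Rnase10 (0.044 with quantile normalization, 0.053 with normexp, 0.059 with the authors' values, -0.46 to 0.45 with 1 array left out), Ang6 (-0.020 with normexp, -0.16 to 0.19 with 1 array left out), Ang4 (-0.11 to 0.47 with 1 left out) and Chit1 (-0.13 to 0.055 with 1 left out). Of 338 recounts of the gene and marker lists, 51 moved beyond 1.5 times, most often with a variance trend or normexp. Chitinase family genes higher numbered 2 or 3 in place of 1 with every alternative that keeps all arrays except the replicate block. Kupffer markers were 4 higher and 6 lower with a variance trend and 1 higher and 6 lower with normexp, against 2 and 3, and hepatocyte markers lower ranged from 0 to 5, against 1. Of the other activation genes and of the dendritic markers, 1 each became lower with normexp and with a variance trend (for the dendritic markers also with the strict filter), against 0. The cause was not tested.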

Other observations

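Probes of the same gene disagreed for some genes of the lists. Clec10a, a galactose-type lectin gene of alternatively activated macrophages, had a log2 difference of 1.41 ± 0.07 at its brightest probe and 2.13 ± 0.31 at its other probe. Cd163, a haemoglobin scavenger receptor gene, had log2 differences of 1.38 ± 0.15 and 0.12 ± 0.17 (adjusted p = 0.614 over all probes), and its call at the brightest probe was lost without MaR1 replicate 2 (adjusted p = 0.0568). The 7 members have 1 probe each, so no such check can be made for them.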
